A study of Mus musculus with 38 samples.

Results

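The genes described here encode heme oxygenase-1, the transcription factor NRF2 and 8 enzymes of antioxidant defence: *Hmox1*, *Nfe2l2*, *Nqo1*, *Gclc*, *Gclm*, *Gsr*, *Txnrd1*, *Srxn1*, *Cat* and *Sod2*. Members were the promoter clusters whose highest peak lies on the same strand within 500 bp of an annotated 5′ end of these genes. All 10 genes had such a cluster, and each had exactly 1, out of 10819 clusters in the table, 9615 of which lie within 500 bp of the 5′ end of some gene.

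Promoter activity was measured in the soleus, a slow postural muscle of the hind limb, of male C57BL/6J mice during fasting-induced torpor, the daily state of low metabolism that mice enter when food is withdrawn in the cool. The method was nAnT-iCAGE, which sequences the capped 5′ ends of RNA without amplification, so that each tag counts the start of 1 RNA whatever the length of the transcript, and levels of different genes may be compared. Levels are given as TPM, tags per 1000000 tags of the library. Each of the 38 libraries is 1 young adult animal, and none carries a transgene or a deletion.

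The libraries fall into 2 runs, which by their group sizes are the study's 2 experiments. The experiments used separate batches of mice and, by the study's methods, different sequencing platforms, whose effects cannot be told apart. Pre animals (4 in the 1st run and 2 in the 2nd) were taken on day 1 with food. Mid animals (8 and 5) were taken on day 2 at the same clock time, fasted at a low ambient temperature, when torpor is expected. Post animals (4 and 3) were taken on day 3 after food had been returned. The other groups belong to the 1st run and to day 2, with 4 animals each. HiT animals were kept at a high ambient temperature and fasted, and Fed animals kept their food at the low temperature. Dep animals were fasted in the cool and touched gently when their oxygen consumption started to fall, to keep them out of torpor. By the study's text the touching began some hours before sampling, after the time at which its mice usually start to enter torpor. Earlier torpor in Dep animals was therefore not prevented. The fasting state of HiT and Fed is given as in the study's methods, since the deposited labels describe it differently. The study's text also mentions Mid animals that were metabolically not torpid at sampling, and the labels do not say which.

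NRF2, the product of *Nfe2l2*, is normally bound by KEAP1 and degraded. Under oxidative or electrophilic stress it escapes, enters the nucleus and, paired with a small MAF protein, activates genes that carry an antioxidant response element (ARE), among them those for glutathione synthesis, thioredoxin reduction and quinone reduction. *Hmox1*, which encodes the enzyme that opens the heme ring to release iron, carbon monoxide and biliverdin, is additionally held down by BACH1, a heme sensor that competes for the same elements. NRF2 itself is controlled largely as a protein, so its promoter tags do not measure its activity.

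To show what the promoters look like, RefSeq windows on GRCm38.p6 running from 250 bases before to 50 after an annotated start were read for the members. The table held windows for 7 of the 10 genes: *Nfe2l2*, *Nqo1*, *Gclm*, *Txnrd1* (3 windows), *Srxn1*, *Cat* and *Sod2*. The ARE core TGACNNNGC was searched on both strands. It was found in 4 of the 5 windowed genes whose promoters rose in torpor and fell on recovery (described below), while 12.4% of all 32851 windows in the table hold a match. The members were picked as NRF2 antioxidant genes, so matches were likely beforehand. The count is by gene and the share by window, so they are not a test. The 4 windows with a match are printed 5′ to 3′ in the sense of the gene, with the match in capitals. TGACNNNGC appears as such or as its reverse complement GCNNNGTCA.
Nfe2l2, chr2:75704614-75704913, minus strand: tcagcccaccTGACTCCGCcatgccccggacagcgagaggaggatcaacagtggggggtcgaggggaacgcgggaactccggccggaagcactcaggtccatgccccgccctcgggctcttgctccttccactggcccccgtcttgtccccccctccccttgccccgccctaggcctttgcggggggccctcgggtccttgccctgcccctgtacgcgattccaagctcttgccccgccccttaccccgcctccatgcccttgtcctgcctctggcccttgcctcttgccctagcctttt
Gclm, chr3:122245307-122245606, plus strand: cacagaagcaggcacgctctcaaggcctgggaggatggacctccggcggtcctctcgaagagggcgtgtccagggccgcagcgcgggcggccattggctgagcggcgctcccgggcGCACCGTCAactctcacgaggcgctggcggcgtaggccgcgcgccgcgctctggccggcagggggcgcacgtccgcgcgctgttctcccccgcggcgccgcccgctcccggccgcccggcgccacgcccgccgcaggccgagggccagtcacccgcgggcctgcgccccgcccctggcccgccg
Txnrd1, chr10:82858956-82859255, plus strand: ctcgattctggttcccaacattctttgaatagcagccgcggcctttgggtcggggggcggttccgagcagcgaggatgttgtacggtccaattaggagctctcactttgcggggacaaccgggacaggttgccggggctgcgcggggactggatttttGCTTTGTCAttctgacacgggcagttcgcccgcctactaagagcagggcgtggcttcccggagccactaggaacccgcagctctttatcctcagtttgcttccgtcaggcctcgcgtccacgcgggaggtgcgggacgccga
Srxn1, chr2:152105274-152105573, plus strand: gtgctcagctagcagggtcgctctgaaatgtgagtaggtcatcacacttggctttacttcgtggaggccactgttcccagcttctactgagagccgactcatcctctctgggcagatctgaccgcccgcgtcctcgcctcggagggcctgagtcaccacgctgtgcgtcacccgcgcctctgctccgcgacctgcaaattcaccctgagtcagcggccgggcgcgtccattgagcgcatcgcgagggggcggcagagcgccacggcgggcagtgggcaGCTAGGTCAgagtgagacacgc

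The centre of the match lies upstream of the CAGE peak by 381 bp in *Nfe2l2*, 257 bp in *Gclm*, 86 bp in *Txnrd1* and 172 bp in *Srxn1*. The CAGE peak of *Txnrd1* falls inside the printed window, and those of *Nfe2l2*, *Gclm* and *Srxn1* lie 96, 78 and 155 bp beyond its downstream edge. The *Srxn1* window also holds 2 matches to the AP-1 word TGACTCA, both in the form TGAGTCA, a word found in 5.2% of all windows. It holds 4 matches to the looser TGANNNNGC, which 41.3% of windows hold, and the AP-1 word nearer to the peak overlaps one of them (TGAGTCAGC). An AP-1 word can also be the start of an ARE core, as it is in 0.454% of windows. No window of *Nqo1*, *Cat* or *Sod2* held any of these words, and no member's window held the CRE word TGACGTCA (1.79% of windows) or the E-box CACGTG (7.15% of windows). A match is a run of letters and not a site shown to be bound, and the absence of a match says only that these letters are not in this window.

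Library totals in the 1st run ranged from 18257657 to 39176649 tags with a median of 26580286, and in the 2nd run from 9359994 to 20914855 with a median of 11281870. The lowest count of a member in a library was 59 tags, which carries a Poisson counting error of 13%. Counting error was at least as large as the SD between libraries in 3 of 90 combinations of member, group and run, namely *Hmox1* in Fed and *Gclc* and *Gsr* in the 2nd-run Pre libraries. A pair of Mid libraries stood apart from the rest. Mid 6 was the lowest of the 8 Mid libraries of its run at 89.8% of the 1917 clusters that rose from Pre to Mid when it was left out, and Mid 10 was the lowest of 5 at 60.5% of the 747 clusters that rose without it. For comparison, the next highest share was 6.21% in the 1st run (Mid 3) and 25% in the 2nd (Mid 13). Mid 6 also had the lowest scaling factor of the Mid libraries (0.83 by TMM, the edgeR scaling, against 0.974 to 1.15 in Pre), so its TPM understate its levels relative to the fitted changes. With TPM divided by this factor, a scale added after seeing the data, the shares were 58.2% for Mid 6 and 68% for Mid 10, with 17.7% (Mid 3) and 24.7% (Mid 11) next. Slow fiber marker genes, 8 in the list, were abundant in all libraries. So were the 7 genes of the fast glycolytic fiber list, so the slow list alone does not describe the muscle. The fast list had the higher median sum in every 1st-run group but Post, and in the 2nd run in Mid only. The red blood cell medians that follow are of the 1st run. In the 2nd run the median of these genes was highest in Mid, as that of *Hmox1* was, and lower in Pre and Post. Red blood cell genes (5 with a cluster), of interest beside a heme-degrading enzyme, summed to a median of 4.58e+03 TPM in Pre, 3.73e+03 in Mid, 2.42e+03 in Post, 2.41e+03 in HiT, 4.97e+03 in Fed and 3.31e+03 in Dep, an order other than that of *Hmox1*.

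*Hmox1* (ENSMUSG00000005413.8, with its peak at 75093620 on the plus strand of chromosome 8, 1 bp from the annotated start) had the widest range of the 10. The 8 Mid libraries of the 1st run had 147, 21, 31.7, 90, 633, 8.39, 61.2 and 124 TPM in the order of their numbers. Against these stood 5.92, 6.54, 4.07 and 6.84 TPM in Pre and 4.78, 4.69, 6.62 and 6.13 TPM in Post. Every Mid library thus lay above every Pre and Post library, although Mid 6 exceeded the highest Pre library by little.

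The remaining groups split by food at the *Hmox1* promoter. Fed libraries had 5.61, 5.19, 6.03 and 5.87 TPM, the narrowest group. HiT libraries had 55.6, 73, 44.3 and 27.5 TPM, and Dep libraries 204, 49.7, 191 and 287 TPM. In the 1st run all libraries of the fasted groups were therefore above all libraries of the groups with food. This held for warm fasted animals (HiT), for Mid animals, and for cool fasted animals touched to hold off torpor (Dep).

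In the order of their mean TPM, the groups ran Dep (183 ± 98.5, SD, n = 4), Mid (140 ± 206, n = 8), HiT (50.1 ± 19.1, n = 4), Pre, Fed and Post. The neighbours Dep and Mid did not differ beyond their spread (log2 fold change ± SE from Mid to Dep 0.62 ± 0.62, FDR 0.614), nor did HiT and Mid (HiT to Mid 1.33 ± 0.67, FDR 0.118), while Pre and HiT did (3.26 ± 0.82, FDR 0.00318). FDR is the Benjamini-Hochberg adjusted p of the edgeR quasi-likelihood test over all clusters, called below 0.05, and a positive log2 fold change means a higher level in the group named last. Without Mid 6 the change from HiT to Mid was 1.54 and passed the threshold (FDR 0.0428), so whether *Hmox1* was called higher in Mid than in HiT depended on that library. Without Mid 5, the library with 633 TPM, it was 0.39 from HiT to Mid (FDR 0.552), 1.55 from Mid to Dep (FDR 0.085), 3.71 from Fed to Mid and -3.65 from Mid to Post, the last pair still called.

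**Figure D1:**
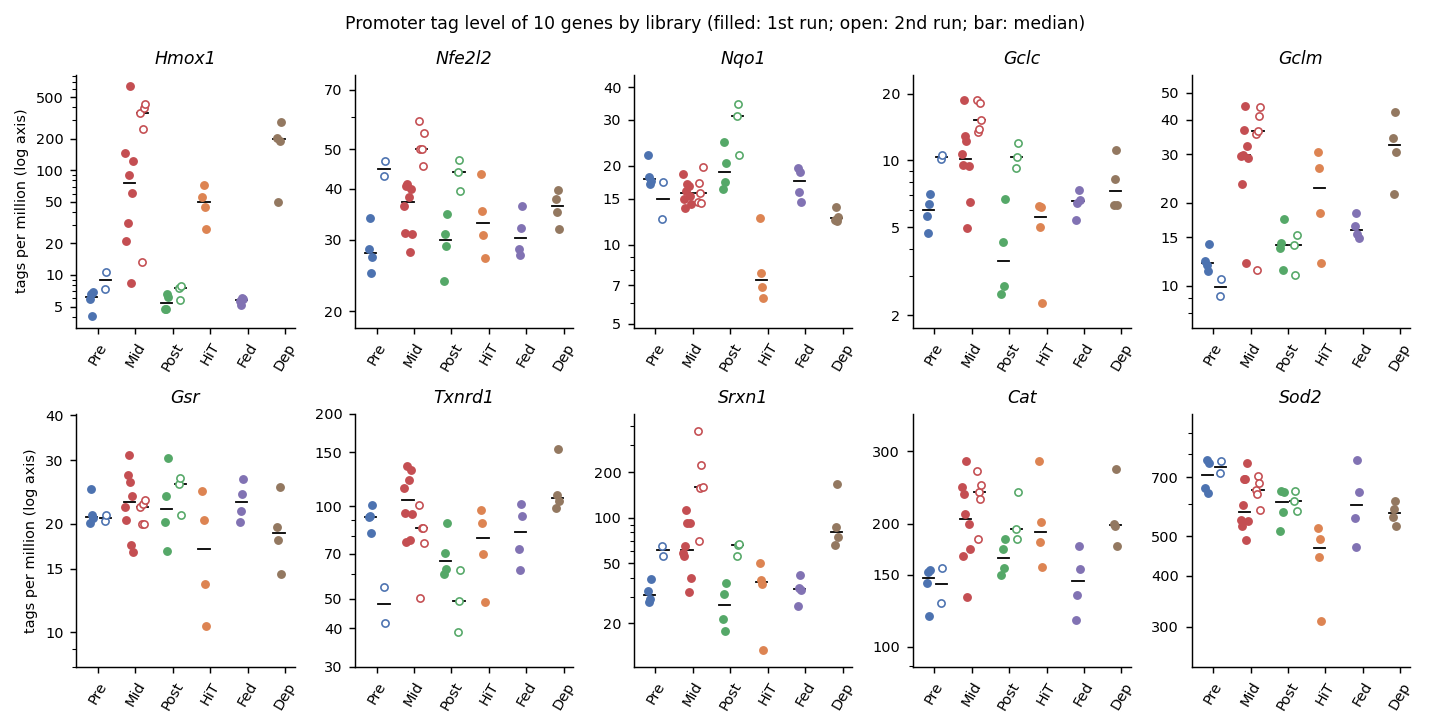
Each point is 1 library, with TPM on a log axis for each of the 10 genes and the groups along the horizontal axis; filled points are the 1st run, open points the 2nd, and the bar is the median of the group in that run. For *Hmox1* the Mid, HiT and Dep libraries run from 8.39 to 633 TPM and the Pre, Post and Fed libraries from 4.07 to 10.6 TPM.

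*Nfe2l2* (ENSMUSG00000015839.6, with its peak at 75704518 on the minus strand of chromosome 2) changed in the same direction but far less. In the 1st run Mid ranged from 28 to 41.2 TPM with a median of 37.2. Pre libraries had 28.4, 33.9, 24.9 and 27.2 TPM, and Post libraries 23.7, 30.9, 28.9 and 34.7 TPM. The ranges overlapped, and the log2 fold change was 0.40 ± 0.07 from Pre to Mid (FDR 7.42e-05) and -0.30 ± 0.07 from Mid to Post (FDR 0.00137). Between HiT and Mid it was -0.04 ± 0.07 (FDR 0.673), and between Fed and Mid 0.31 ± 0.07 (FDR 0.00101).

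*Nqo1* (ENSMUSG00000003849.8, with its peak at 107403208 on the minus strand of chromosome 8), whose product reduces quinones in a single step and which is a standard reporter of NRF2 activity, did not follow. Mid ranged from 13.8 to 18.6 TPM with a median of 15.7 in the 1st run, and Pre libraries had 22, 18.1, 17 and 17.5 TPM, giving -0.15 ± 0.13 from Pre to Mid (FDR 0.393). The low group was HiT, with 12.6, 7.77, 6.9 and 6.26 TPM. All 4 HiT libraries lay below all Pre and all Mid libraries, the log2 fold change being -0.99 ± 0.15 from Pre to HiT (FDR 1.32e-05) and 0.84 ± 0.13 from HiT to Mid (FDR 1.8e-05).

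Glutathione synthesis begins with glutamate-cysteine ligase, made of a catalytic subunit (*Gclc*) and a modifier subunit (*Gclm*). *Gclc* (ENSMUSG00000032350.9, with its peak at 77754533 on the plus strand of chromosome 9) had 10.7, 9.56, 18.8, 12.9, 12.2, 4.93, 9.48 and 6.47 TPM in Mid 1 to 8. It had 5.63, 4.68, 6.37 and 7.07 TPM in Pre and 2.49, 4.29, 2.72 and 6.68 TPM in Post. Only Mid 6 and Mid 8 fell within the Pre range, and the changes were 0.89 ± 0.24 (FDR 0.00702) and -1.43 ± 0.25 (FDR 9.64e-05).

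*Gclm* (ENSMUSG00000028124.15, with its peak at 122245684 on the plus strand of chromosome 3) had 29.6, 23.4, 29.8, 36.6, 44.8, 12.1, 32 and 29 TPM in Mid 1 to 8. Pre libraries had 12.3, 11.9, 11.3 and 14.2 TPM, and Post libraries 13.7, 14.3, 11.4 and 17.5 TPM. Every Mid library but Mid 6 lay above both groups, with a change of 1.31 ± 0.20 from Pre to Mid (FDR 1.77e-05) and -1.05 ± 0.19 from Mid to Post (FDR 0.000143). The subunits parted in the warm: *Gclm* had 30.5, 26.7, 18.4 and 12.1 TPM in HiT, a rise from Pre of 0.96 ± 0.22 (FDR 0.00118), while *Gclc* had 6.24, 5, 6.14 and 2.28 TPM, a difference of -0.13 ± 0.28 (FDR 0.758). Whether the subunits' responses differ from each other was not tested. *Gsr* (ENSMUSG00000031584.16, with its peak at 33653528 on the plus strand of chromosome 8, 290 bp from the nearest annotated 5′ end), which regenerates reduced glutathione, stayed between 10.4 and 31 TPM in all groups of the 1st run, with 0.16 ± 0.11 from Pre to Mid (FDR 0.312) and -0.03 ± 0.11 from Mid to Post (FDR 0.855).

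*Srxn1* (ENSMUSG00000032802.8, with its peak at 152105728 on the plus strand of chromosome 2, 204 bp from an annotated 5′ end), whose product sulfiredoxin repairs over-oxidised peroxiredoxins, had 58.2, 55.8, 64.6, 112, 91.8, 32.2, 91.8 and 39.7 TPM in Mid 1 to 8. Pre libraries had 32.6, 27.7, 29 and 39.2 TPM, and Dep libraries 66.4, 86.3, 167 and 74.9 TPM. Mid 6 was the only Mid library within the Pre range, and all Dep libraries were above it. The changes were 1.13 ± 0.25 from Pre to Mid (FDR 0.00112), -1.34 ± 0.25 from Mid to Post (FDR 0.000177) and 1.76 ± 0.28 from Pre to Dep (FDR 4.01e-05).

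*Txnrd1* (ENSMUSG00000020250.10, with its peak at 82859204 on the plus strand of chromosome 10) encodes the cytosolic thioredoxin reductase. Its Mid libraries ranged from 76.4 to 135 TPM with a median of 105, and Pre libraries had 92.2, 92.7, 81.8 and 101 TPM. The ranges overlapped and the rise of 0.27 ± 0.10 was barely called (FDR 0.0437): it was lost in a fit of the compared groups alone and on leaving out any of 9 of the 12 Pre and Mid libraries (0.23 to 0.30). The fall to Post libraries of 60.2, 70.2, 62.6 and 88.2 TPM was clearer (-0.60 ± 0.10, FDR 5.86e-05).

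*Cat* (ENSMUSG00000027187.10, with its peak at 103485106 on the minus strand of chromosome 2) encodes catalase, the peroxisomal enzyme that breaks down hydrogen peroxide. Its Mid libraries ranged from 132 to 285 TPM with a median of 205, against 143, 152, 119 and 154 TPM in Pre and 284, 180, 202 and 157 TPM in HiT. Mid 6 was again the only Mid library within the Pre range, and HiT lay wholly above Pre, with 0.61 ± 0.11 from Pre to Mid (FDR 0.000172) and 0.72 ± 0.13 from Pre to HiT (FDR 8.15e-05). The fall of *Cat* from Mid to Post, -0.32 ± 0.11 (FDR 0.0259), was not called without Mid 5, Post 3 or Post 4, at -0.30 to -0.26. *Sod2* (ENSMUSG00000006818.5, with its peak at 13007977 on the plus strand of chromosome 17), the mitochondrial superoxide dismutase, had the strongest promoter of the 10 with 490 to 757 TPM in Mid, and was not called against Pre (-0.14 ± 0.08, FDR 0.192). It was called lower in Mid with upper-quartile scaling (-0.21, FDR 0.0416) and with all 38 libraries and run as a term (-0.15, FDR 0.0499). It was lower in HiT, at 525, 445, 493 and 310 TPM, than in Pre, at 660, 771, 640 and 760 TPM (-0.49 ± 0.09, FDR 0.000247).

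Counted together, 7 of the 10 members (*Hmox1*, *Nfe2l2*, *Gclc*, *Gclm*, *Txnrd1*, *Srxn1* and *Cat*) rose from Pre to Mid in the 1st run, against 15.4% of all 10776 clusters tested, and none fell, against 14.8%. The same 7 fell from Mid to Post, against 17.5% of all clusters, and none rose, against 17.5% again. A rise followed by a fall, 7 of 10 here, was seen at 11.4% of all clusters. These comparisons share their Mid libraries and are not independent of each other. The members were chosen with earlier results of these data known, so the counts are a description and not a test. The median log2 fold change of the members was 0.51 from Pre to Mid, with 0.01 for all clusters, and -0.46 from Mid to Post, with -0.01 for all clusters. From Pre to Post none of the 10 was called (1.85% of all clusters were, in either direction). Without TMM scaling 4 members, not 7, were called from Pre to Mid.

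To ask which of these changes go with fasting, cold or torpor, Mid was set against Fed and HiT, in which torpor was prevented, and against Dep. From Fed to Mid the same 7 members rose, against 16.6% of all clusters, and none fell, against 18.6%. *Hmox1* rose by 4.65 ± 0.83 (FDR 0.000118), *Srxn1* by 1.09 ± 0.25 (FDR 0.00128) and *Gclm* by 0.94 ± 0.19 (FDR 0.000472). Without TMM scaling, 4 were called. From Pre to Fed none of the 10 was called (11.2% of all clusters in either direction), and both groups had food and the same low ambient temperature.

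From HiT to Mid 6 members rose, against 19.2% of all clusters, and none fell, against 21.8%. The members were *Nqo1*, *Gclc*, *Gsr*, *Txnrd1*, *Srxn1* and *Sod2*, of which *Nqo1*, *Gsr* and *Sod2* had not been called from Pre to Mid. *Srxn1* was at 50.5, 38.8, 36.3 and 13.4 TPM in HiT and rose by 0.90 ± 0.24 to Mid (FDR 0.00465), *Gclc* rose by 1.02 ± 0.25 (FDR 0.00181) and *Txnrd1* by 0.38 ± 0.10 (FDR 0.00362). These 3 were the members that rose in all of Pre to Mid, HiT to Mid and Fed to Mid and fell from Mid to Post, a combination seen at 4.03% of all clusters. Without TMM scaling only *Srxn1* kept all of these calls. *Gclc* then lost those from Pre to Mid (FDR 0.0551) and Fed to Mid (FDR 0.0888). *Txnrd1* lost its calls from Pre to Mid (FDR 0.509), HiT to Mid (FDR 0.0633) and Fed to Mid (FDR 0.189). The rise of *Gsr*, 0.34 ± 0.12 (FDR 0.0192), was not called without HiT 3 (0.30) or HiT 4 (0.31). Nor was it called without TMM scaling (0.42, FDR 0.132). When Mid 6 was left out, *Hmox1* (1.54) and *Gclm* (0.48, FDR 0.0127) were also called, which made 8 members.

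From Pre to HiT, 4 members rose (*Hmox1*, *Nfe2l2*, *Gclm* and *Cat*), against 18.5% of all clusters, and 2 fell (*Nqo1* and *Sod2*), against 14.9%. *Srxn1* (0.23 ± 0.27, FDR 0.546), *Gclc* and *Txnrd1* (-0.11 ± 0.12, FDR 0.473), which rose from HiT to Mid, were not called from Pre to HiT. In the HiT libraries macrophage marker genes were also higher: the summed level of the 9 listed genes with a cluster, out of 13, was 158 to 471 TPM in HiT and 40.5 to 112 TPM in the other groups of the 1st run, with none of the 9 at 0 in any group, and its part in the HiT results was not tested. HiT 4 had the lowest TMM scaling factor of the run, 0.679, so its TPM understate its levels relative to the fitted changes. In a tissue sample a change in the number of cells of a type and a change in RNA per cell cannot be told apart.

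From Mid to Dep no member was called (2.03% of all clusters were, in either direction). The differences of the members lay between -0.31 (*Gclc*) and 0.63 (*Srxn1*, SE 0.23, FDR 0.132). Against Pre, 6 members were higher in Dep (*Hmox1*, *Nfe2l2*, *Gclm*, *Txnrd1*, *Srxn1* and *Cat*), against 13.7% of all clusters, and none was lower, against 12.1%. Against HiT, 5 were higher in Dep (*Nqo1*, *Gclm*, *Txnrd1*, *Srxn1* and *Sod2*), against 11.3% of all clusters, and none was lower, against 15.3%. *Srxn1* had the largest of these differences, 1.53 ± 0.28 (FDR 0.000166), with all Dep libraries above all HiT libraries. *Hmox1* differed by 1.94 ± 0.75 and was not called (FDR 0.0579). In Dep 1 the 4 neutrophil marker genes with a cluster summed to 117 TPM, against 1.74 TPM or less in the other libraries of the run, and their part in the Dep values was not tested.

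**Figure D2:**
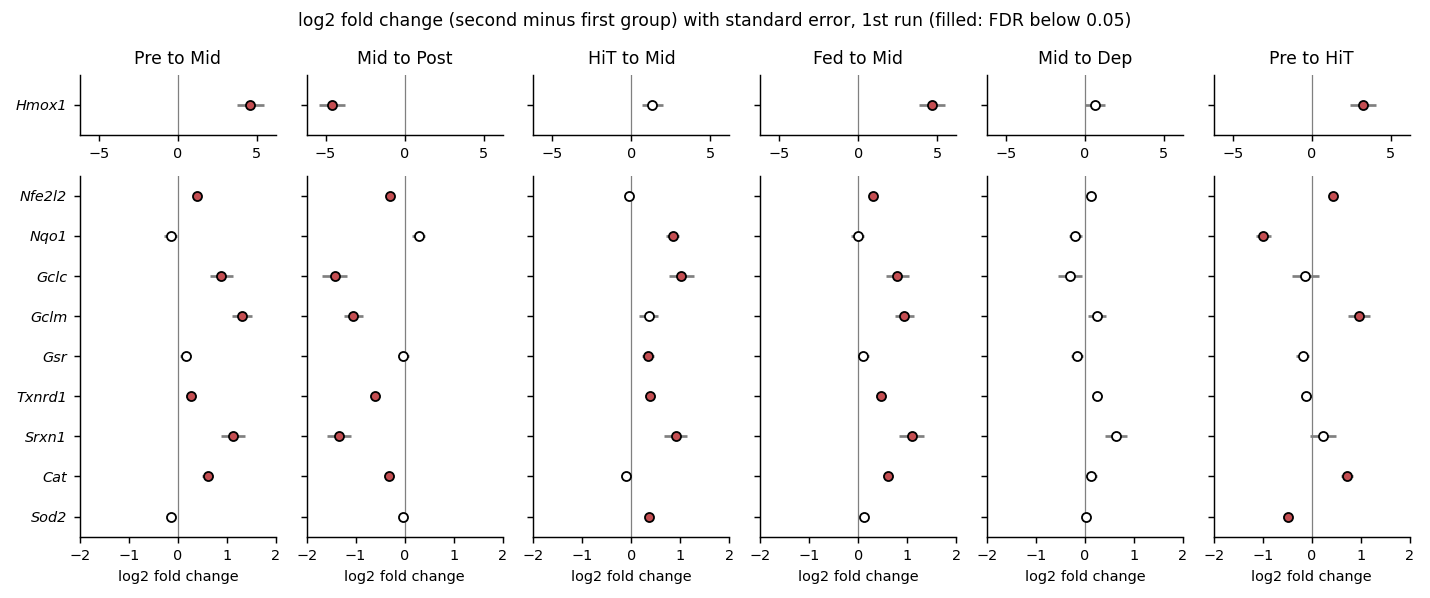
Log2 fold changes in the 1st run from the group named first to the group named second (horizontal axis, with *Hmox1* on a wider scale in the upper row), bars being standard errors and filled points FDR below 0.05. From Pre to Mid 7 points are filled to the right of 0 and from Mid to Post the same 7 to its left, while from Pre to HiT *Nqo1* and *Sod2* lie at -0.99 and -0.49.

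In the 2nd run, sequenced separately from other animals, Pre, Mid and Post were measured again. *Hmox1* had 7.29 and 10.6 TPM in Pre, then 355, 13.2, 248, 391 and 433 TPM in Mid 9 to 13, then 7.51, 5.82 and 7.92 TPM in Post. The Mid libraries lay above the others, Mid 10 by little. The changes were 5.09 ± 1.15 (FDR 0.0207) and -5.44 ± 0.96 (FDR 0.00349).

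*Srxn1* had 65.2 and 56.2 TPM in Pre, 373, 70.1, 156, 224 and 159 TPM in Mid and 55.4, 65.9 and 66.9 TPM in Post. *Gclm* had 9.16 and 10.6 TPM in Pre, 35.5, 11.4, 36.4, 41.2 and 44.6 TPM in Mid and 14.1, 10.9 and 15.3 TPM in Post. Mid 10 was the lowest Mid library for both genes. From Pre to Mid 4 members were called higher (*Hmox1*, *Gclc*, *Gclm* and *Cat*), against 5.3% of the 10816 clusters tested, and none lower, against 4.44%. Lane 3 held Pre 5, Pre 6 and Mid 9 to 12, and Mid 13 was on lane 4. With lane as a term *Hmox1* (4.87, FDR 0.0368) and *Cat* (0.73, FDR 0.0374) were still called, and *Gclc* (0.66, FDR 0.0727) and *Gclm* (1.68, FDR 0.0577) were not. *Srxn1*, at 1.76 ± 0.52, missed the threshold (FDR 0.0577), as did *Txnrd1* at 0.77 ± 0.26 (FDR 0.0945).

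From Mid to Post in the 2nd run 5 members fell (*Hmox1*, *Gclc*, *Gclm*, *Txnrd1* and *Srxn1*), against 8.65% of all clusters, and *Nqo1* rose, against 7.73%. All 3 Post libraries were on lane 4, where Mid 13 was the only Mid library, so group and lane nearly coincide. With lane as a term only *Hmox1* was called (-6.09, FDR 0.0171), while *Nqo1* was at 0.39 (FDR 0.425) and *Gclm* at -1.89 (FDR 0.0644). *Nqo1* went from 14.6, 17.2, 15.8, 14.5 and 19.9 TPM in Mid to 31, 34.4 and 22.1 TPM in Post, without overlap (0.74 ± 0.17, FDR 0.0153). In the 1st run the same change was 0.29 ± 0.13 (FDR 0.0779), and it was called there with upper-quartile scaling (0.35, FDR 0.0298). A test of run by group called no cluster in either comparison (edgeR quasi-likelihood, lowest FDR of a member 0.754; 5.59% and 6.51% of all clusters had an unadjusted p under 0.05). Among the members the unadjusted p was under 0.05 for *Txnrd1* from Pre to Mid (0.04) and *Nqo1* from Mid to Post (0.0495). With only 2 Pre animals the calls of this run were fragile: leaving out single libraries moved the members called from Pre to Mid between 0 (without Pre 5 or Pre 6), 2 (without Mid 9, Mid 12 or Mid 13) and 6 (without Mid 10), and those from Mid to Post between 1 (without Post 5), 2 (without Post 6) and 6 (without Mid 10).

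The Mid animals differed among themselves in a way that the 7 rising members shared. Mid 6 was the lowest of its run's 8 Mid libraries for 6 of the 7 (all but *Txnrd1*, where Mid 3 was lower), and Mid 10 the lowest of its run's 5 for 6 of the 7 (all but *Nfe2l2*, where Mid 12 was lower). In log2(TPM + 0.1), the median distance of the 7 from the Pre mean was -0.03 in Mid 6, against 0.29 to 1.12 in the other Mid libraries of the run, and 0.21 in Mid 10, against 0.81 to 1.07. With TPM divided by the TMM factor these distances were 0.32 in Mid 6, against 0.56 to 1.12, and 0.22 in Mid 10, against 0.79 to 1.16, and each of the pair was then the lowest for 5 of the 7. Lower levels in these libraries were not confined to the antioxidant genes, but in Mid 10 the shortfall was smaller over all risen clusters than at the 7. At the 1917 clusters that rose without Mid 6 the median distance from Pre was -0.17 in Mid 6 and 0.42 in the mean of the other Mid libraries, and at the 747 clusters that rose without Mid 10 it was 0.46 in Mid 10 and 0.66 in the others. Divided by the TMM factor, the values were 0.18 and 0.47 for Mid 6, and 0.47 and 0.72 for Mid 10. *Hmox1* was above the Pre mean in both libraries, by 0.54 and 0.58. Macrophage marker genes summed to 76.2 TPM in Mid 6, within the 55.4 to 86.3 TPM of its group. In Mid 10 they summed to 109 TPM, the highest of its group (lowest 53 TPM). Mid 10 was also the highest of its group for adipocyte, endothelial cell and tendon marker genes. It was not the highest for the red blood cell, neutrophil, slow fiber or fast fiber lists. Mid 6 was the highest of its group for none of these lists. The part of other cell types in the levels of Mid 10 was not tested. Leaving Mid 6 out did not remove any call from Pre to Mid or from Mid to Post and raised the *Hmox1* change to 4.79 and -4.77.

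**Figure D3:**
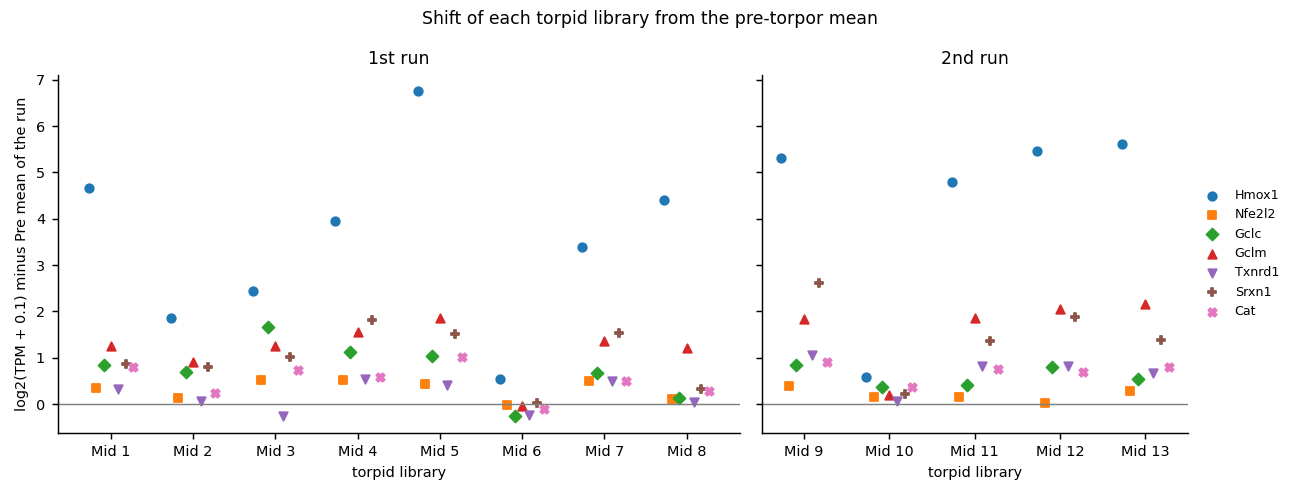
For each Mid library of the 1st run (left) and the 2nd run (right), the points give log2(TPM + 0.1) minus the mean of the Pre libraries of that run for the 7 members that rose and fell. In Mid 6 and Mid 10 all points lie between -0.25 and 0.58, while *Hmox1* is above 1.8 in each of the others.

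The other genes of the pathway were read from lists of 81 genes in 6 groups, by the main cluster of each gene, which 70 had. The lists, too, were chosen with earlier results of these data known, so their counts are not a test. Among 10 regulators of NRF2 with a cluster, 6 rose from Pre to Mid, against 15.4% of all clusters, and none fell, against 14.8% (median log2 fold change 0.45, 0.01 for all clusters). Small MAF genes, whose products pair with NRF2 or BACH1, were among them. *Mafk* had 47 ± 7.15 TPM in Pre and 129 ± 33.8 TPM in Mid (SD), a log2 fold change of 1.52 (FDR 2.6e-08), and fell by 1.52 to Post (FDR 8.93e-09). *Maff* changed by 1.40 (FDR 0.00117) and *Mafg* by 0.58 (FDR 0.000344). *Bach1*, the repressor of *Hmox1*, rose as well, from 14.8 to 21.2 TPM in the mean (0.59, FDR 0.000309), and *Sqstm1*, whose product p62 draws KEAP1 into autophagy, rose from 177 ± 30.7 to 310 ± 69.5 TPM (0.89, FDR 6.09e-06). The 6th was *Nfe2l1* (0.32, FDR 0.00469), a relative of *Nfe2l2*. *Keap1* itself was at 30.5 TPM in Pre and 30.9 TPM in Mid (0.09, FDR 0.494).

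Of the 60 genes outside the regulators, 5 rose from Pre to Mid, against 15.4% of all clusters, and 15 fell, against 14.8% (median -0.11, 0.01 for all clusters). The counts of the single lists, all of 16 genes or fewer, are read against the same shares. Of 15 genes of heme and iron handling, 2 rose and 4 fell. *Tfrc*, the transferrin receptor that brings iron into cells, fell from 68.5 ± 11.1 in Pre to 12.9 ± 4.31 TPM in Mid (-2.30, FDR 7.94e-09) and was lowest in HiT, at 7.04 ± 1.76 TPM (SD, n = 4). *Flvcr1*, a heme exporter, rose from 5.99 to 14 TPM (1.29, FDR 0.00236), and *Alas1*, the first enzyme of heme synthesis, fell by 0.56 (FDR 6.66e-06). The other heme oxygenase, *Hmox2*, was at 23.4 TPM in Pre and 23 TPM in Mid (0.05, FDR 0.62).

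Of 16 other glutathione genes 1 rose from Pre to Mid and 5 fell. The riser was *Chac1*, which degrades glutathione, from 12.8 ± 4.23 to 39.3 ± 19.7 TPM (1.66, FDR 0.00141), and it fell by 2.70 to Post (FDR 1.14e-05). None of 11 thioredoxin and peroxiredoxin genes rose and 2 fell. Of 11 genes of superoxide and NADPH supply 1 rose and 3 fell, among them *Tkt*, transketolase of the pentose phosphate pathway (-1.34, FDR 0.00802), and *Me1*, malic enzyme (-0.89, FDR 0.000541). Of 7 genes of detoxification and transport 1 rose, *Osgin1*, an oxidative stress response gene, from 2.64 ± 0.587 to 7.02 ± 2.53 TPM (1.47, FDR 5.33e-05), and 1 fell. From HiT to Mid 19 of the 70 rose, against 19.2% of all clusters, and 12 fell, against 21.8%. *Osgin1* rose (1.21, FDR 0.000238), while *Gpx7* (-1.44, FDR 2.41e-07), *Prdx4* (-1.06, FDR 9.93e-08), *Sod3* (-1.35, FDR 6.11e-06) and *Ugdh* (-1.41, FDR 5.78e-08) were lower in Mid, that is higher in the HiT libraries in which macrophage markers were also high. A link of these genes to the macrophage markers was not tested. From Mid to Dep none of the 70 was called, where 2.03% of all clusters were.

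The genes whose pattern was most like that of *Hmox1* were looked for among 8900 main clusters with a mean of at least 1 TPM, by Pearson's r of log2(TPM + 0.1) over the 28 libraries of the 1st run. The 5 highest were the metallothionein genes *Mt1* (r = 0.95) and *Mt2* (r = 0.95), *Retreg1*, a receptor for autophagy of the endoplasmic reticulum (r = 0.92), *Gabarapl1*, an autophagosome protein (r = 0.92), and *Slc25a34*, a mitochondrial carrier (r = 0.89). In the 10 libraries of the 2nd run, which did not choose them, r was 0.96, 0.98, 0.92, 0.91 and 0.93. In the 1st run *Mt1* was at 90.4, 582, 70.7, 463, 57.6 and 589 TPM on average in Pre, Mid, Post, HiT, Fed and Dep. Its level in Mid 6 was 120 TPM, the lowest of the Mid libraries of that run. In the 2nd run its level in Mid 10 was 493 TPM, again the lowest of the Mid libraries, with 156 and 119 TPM in Pre. These libraries share groups and runs, so r describes the shared pattern and carries no p.

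Among the members themselves, r with *Hmox1* in the 1st run was highest for *Gclm* (0.89; 0.97 in the 2nd run), followed by *Cat* (0.75 and 0.72) and *Srxn1* (0.71 and 0.93), and was negative for *Nqo1* (-0.42 and -0.47). *Nfe2l2* stood at 0.62 and 0.67. The 5 genes most like *Nfe2l2* were *Ddx21* (r = 0.91), *Wdr43* (0.90), *Fubp1* (0.90), *Hp1bp3* (0.88) and *9530068E07Rik* (0.88). Their r in the 2nd run was 0.45, 0.66, 0.65, 0.53 and 0.57, lower than in the 1st for each.

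**Figure D4:**
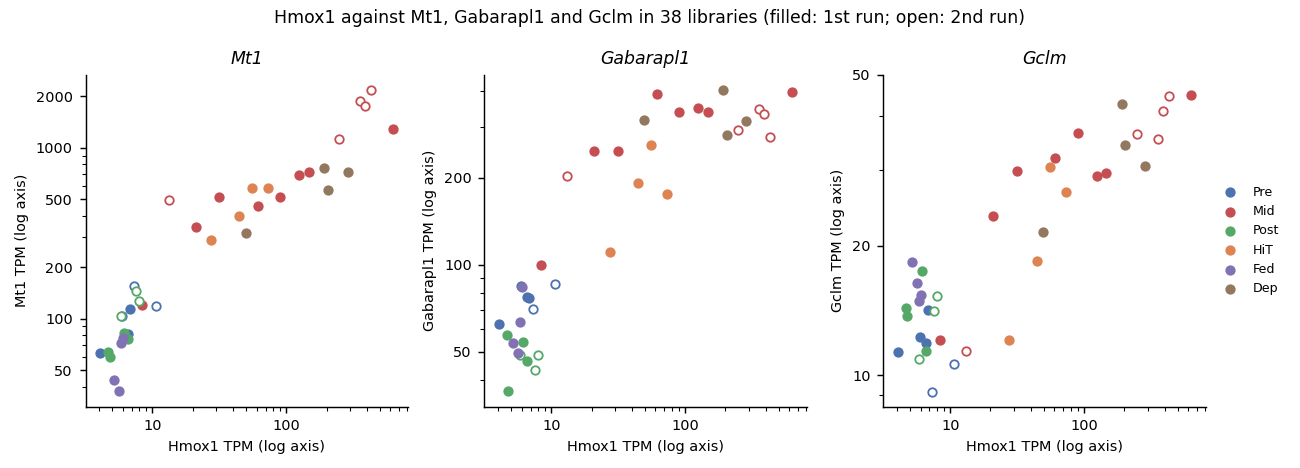
Level of *Mt1*, *Gabarapl1* and *Gclm* (vertical axes) against that of *Hmox1* (horizontal axes), in TPM on log axes, with 1 point per library coloured by group, filled for the 1st run and open for the 2nd. The Pre, Post and Fed libraries gather below 10.6 TPM of *Hmox1*, and Mid 6, at 8.39 TPM of *Hmox1* and 120 TPM of *Mt1*, lies with them.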

How the data were processed

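nAnT-iCAGE tags of 38 soleus libraries were mapped to mm10 by the authors (BWA and HISAT2, per the submitters' processing notes, with versions not given in the sources used here) and grouped into clusters of starts. The deposited table gives raw tag counts per cluster and library, and TPM that the authors scaled to each library's total tags. Clusters were assigned here to GENCODE vM21 5′ ends (500 bp, same strand). Counts were tested with edgeR 4.0.16 (TMM, quasi-likelihood F test), with all 28 libraries of the 1st run in a single fit and the 10 of the 2nd in another. SE is the absolute log2 fold change over the square root of F. Values of TPM serve as levels and were not tested. Groups came from the sample titles. The members and gene lists were chosen with earlier results of these data known. Genes outside the 10 were named if FDR was below 0.05 and the log2 change at least 1 in any comparison of Mid, if they complete a list's risers or are a gene's direct partner (*Keap1*, *Bach1*, *Mafg*, *Nfe2l1*, *Alas1* and *Hmox2*, chosen after their values were seen), or by likeness to *Hmox1* or *Nfe2l2*. Counts were simulated for the 1st run with 200 clusters changed by a log2 of 1 from Pre to Mid, alike in every Mid library. The fit recovered 178 of them, with 13 false calls. Most members changed by less than this, and the real Mid libraries were not alike, so recovery of such changes was not measured. No pair of libraries of a group was a duplicate (72 pairs, lowest chi-square per cluster 12.4). Alternatives were the likelihood ratio test, DESeq2, scaling without TMM or by the upper quartile, filterByExpr, the compared groups alone, all libraries with run as a term, the replicate block, sequencing lane as a term, summed clusters, a 100 bp window and leaving out each library. Motifs and windows came from the RefSeq table of the reference on GRCm38.p6, which is mm10. Cluster positions are given from 1.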

Additional observations from a re-analysis of the deposited data

Results flagged for a closer look

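Of 70 combinations of member and group, with 4, 5 or 8 libraries each, checked in TPM for a single library far from the rest, 2 had one. Chance would flag about 1 in 20 of independent combinations, and 2 of 70 is not more than that. The members share libraries, so the count does not say whether either flag arose by chance. *Hmox1* in Mid 5, at 633 TPM, was separated from the next Mid library by 0.78 of the range of the 8. On the log2 scale the gap was a smaller part of the range: Mid 5 was 6.76 above the Pre mean, the next, Mid 1, 4.66 and the lowest, Mid 6, 0.54. *Gclm* in Mid 10, at 11.4 TPM, was below the next of the 5 Mid libraries of its run by 0.73 of their range.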

How the results depend on the processing

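No member changed direction under an alternative where either fit called it. Of 1188 values for the members other than *Hmox1* under the alternatives, 1106 kept their side of the threshold, 68 lost a call and 14 gained one. Without TMM scaling 4 members were called from Pre to Mid and 4 from Fed to Mid instead of 7 each, and the median of all clusters moved to -0.12 from Fed to Mid, 0.11 from HiT to Mid and -0.10 from Mid to Dep. With sequencing lane as a term in the 2nd run, 2 members were called from Pre to Mid and 1 from Mid to Post. Replicate numbers did not pair the animals (correlations of same-numbered libraries from -0.59 to 0.44). With the replicate block, 1 member was called from Mid to Dep, *Hmox1* at 1.62 (FDR 0.049), *Txnrd1* lost its call from Pre to Mid (0.21) and *Nqo1* gained one from Mid to Post (0.36). Numbers 5 to 8 occur only in Mid, so under this block the changes of Mid rest on Mid 1 to 4. A 100 bp window leaves out *Gsr* and *Srxn1*. Leaving out each library, the *Hmox1* change ranged from 3.65 to 4.79 (Pre to Mid), -4.77 to -3.65 (Mid to Post), 0.39 to 1.54 (HiT to Mid), 3.71 to 4.87 (Fed to Mid) and 0.17 to 1.55 (Mid to Dep), and in the 2nd run from 4.87 to 5.41 and -5.74 to -5.21; it lost its 2nd-run Pre to Mid call without either Pre library. The members called then ranged from 6 to 7, 6 to 8, 5 to 8, 7 to 7 and 0 to 0, and in the 2nd run from 0 to 6 and 1 to 6. At this depth the counting error of *Gclc* in the 2nd-run Pre libraries, 9.27%, exceeded their SD of 3.43%.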
